A study of Mus musculus with 5 samples.

Results

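CBX2 peaks were examined at 10 LIM homeobox genes, Lhx1, Lhx5, Lhx2, Lhx9, Lhx3, Lhx4, Lhx6, Lhx8, Isl1 and Lmx1b, out of 22380 protein-coding genes annotated on the mouse mm9 genome. The genes were chosen by family membership, with earlier results of these data known. The set leaves out the family members Isl2 and Lmx1a, which are described separately. For each gene and each peak list, every peak that overlapped the gene body extended by 5 kb on each side was taken, with its width, its edges and whether the annotated 5′ end of the gene lay inside it.

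LIM homeobox genes encode transcription factors that carry a pair of LIM domains, which bind cofactors, ahead of a DNA-binding homeodomain. They specify cell types in the developing brain, spinal cord, limb, heart, pituitary, kidney and gonad, and several are textbook targets of Polycomb repression in cells that do not use them. Polycomb Repressive Complex 2 (PRC2) methylates lysine 27 of histone H3, and forms of Polycomb Repressive Complex 1 (PRC1) that hold a CBX subunit such as CBX2 can bind the trimethylated mark. Both complexes are found mostly at CpG islands.

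The cells were mouse embryonic fibroblasts (MEFs) from an embryo with a floxed Eed gene, which encodes a core subunit of PRC2. The Control library came from the parental cells (EED floxed), and whether these carried an empty vector is not stated. The EZHIP library came from cells that overexpressed human EZHIP, a protein of posterior fossa ependymomas that inhibits PRC2, and the K27M library from cells that overexpressed H3.3K27M, the histone mutant of diffuse midline gliomas that also inhibits PRC2. Both were expressed stably from lentiviruses, and transduced cells were selected with puromycin. Crosslinked chromatin was digested with micrococcal nuclease and immunoprecipitated with an antibody to CBX2. The comparison addressed whether CBX2 stayed at these genes when PRC2 was inhibited.

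Only 1 library represented each condition, and its broad peaks numbered 289 for Control, 255 for EZHIP and 327 for K27M. The lists held positions only, without heights or read numbers, so the depth of the libraries is unknown and no difference between them could be set against replicate error. A gene without a peak is one where no peak was called. The lists hold no expression values, and the fibroblast label was not checked against marker genes.

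CBX2 peaks were called at 8 of the 10 genes in at least 1 list. Control peaks lay at 6 genes, EZHIP peaks at 6 and K27M peaks at 7. Over all protein-coding genes, 1.49% had a peak by the same rule in Control, 1.44% in EZHIP and 1.78% in K27M. Among the 11908 genes with a CpG island window within 1000 bp of the 5′ end, a property of 9 of the 10 genes, these shares were 2.23, 2.19 and 2.58%. Any list had a peak at 2.27% of all protein-coding genes and at 3.33% of those with an island window. Lhx1, Lhx2, Lhx4, Lhx8 and Isl1 had a peak in all 3 lists, against 1.02% of all protein-coding genes and 1.54% of those with an island window. Lhx5 had a peak in Control and K27M, Lhx3 in K27M alone and Lmx1b in EZHIP alone, while Lhx6 and Lhx9 had none.

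The annotated 5′ end was inside a Control peak for 4 genes, an EZHIP peak for 5 and a K27M peak for 5. The shares of all protein-coding genes were 0.903, 0.894 and 1.19%, and those of genes with an island window 1.40, 1.39 and 1.85%. It was inside in all 3 lists for Lhx1, Lhx4, Lhx8 and Isl1, whereas 0.657% of protein-coding genes and 0.983% of those with an island window had this. No gene had more than 1 peak per list. The authors' peak calling allowed gaps of up to 10000 bp, so 1 peak can join separate enriched stretches. Widths and edges below carry this limit.

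**Figure D1:**
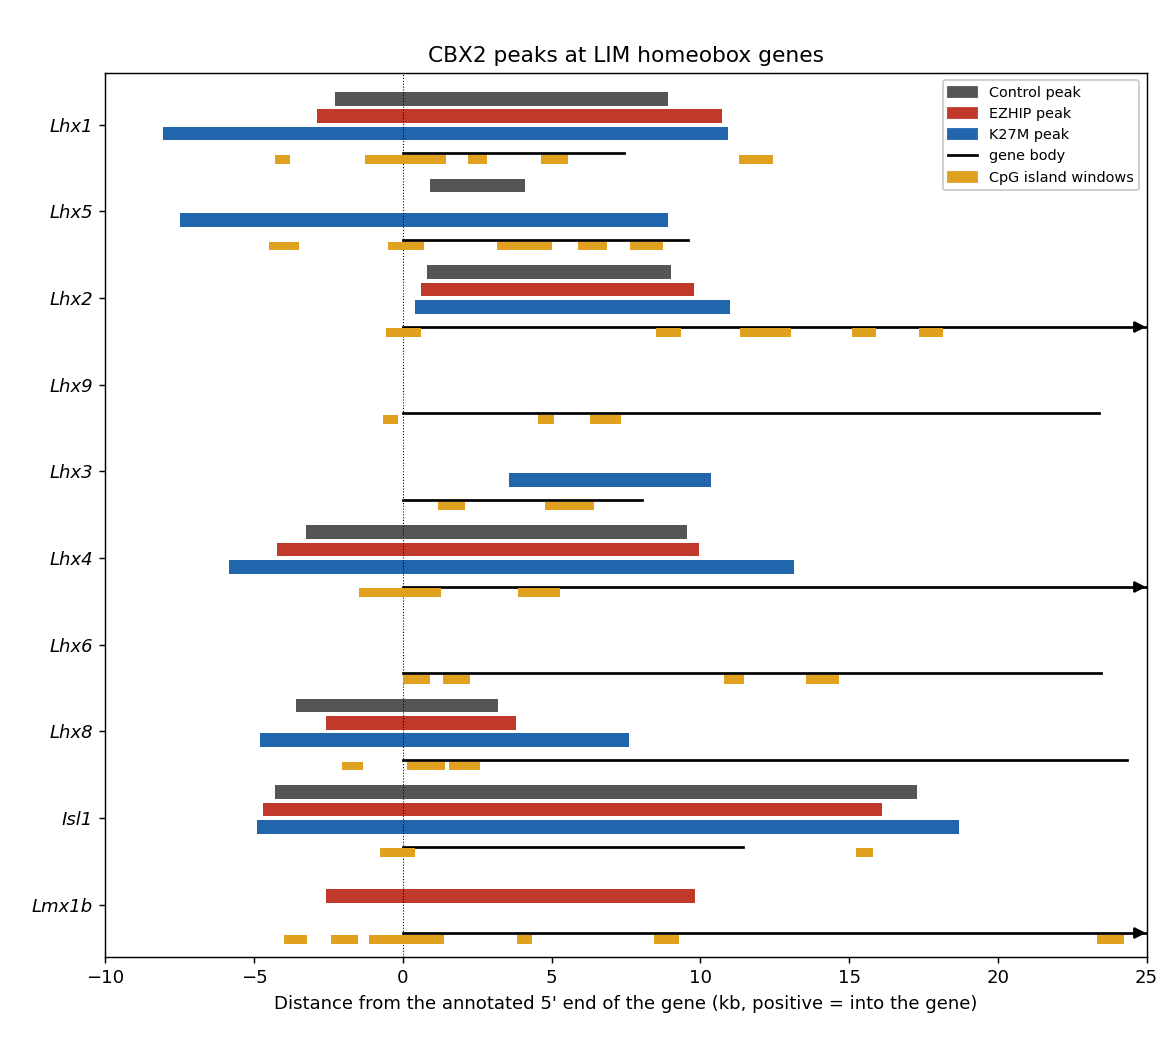
Peaks of the Control, EZHIP and K27M lists at the 10 genes, drawn to scale by distance from the annotated 5′ end in kb, with the gene body as a black line (an arrowhead where it runs past the right edge) and CpG island windows in yellow. Lhx1, Lhx4, Lhx8 and Isl1 have the 5′ end inside all 3 peaks, the Lhx2 peaks begin downstream of it, and Lhx9 and Lhx6 have islands but no peak.

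The sequence at these genes was read from the mm9 genome. CpG-dense windows of 150 bp are shown for 6 genes to set a pair of genes with peaks in every list (Isl1, Lhx4) beside genes whose peaks depended on the list (Lhx5, Lmx1b) and genes without a peak (Lhx6, Lhx9). Each is the window with the most CpG dinucleotides in the part covered by every peak at that gene, or in the extended gene body where no peak was called, outside untranslated exons. They are written 5′ to 3′ on the strand of the gene, which is the minus strand for all but Lhx5, and capitals mark CpG dinucleotides.
Isl1, 24 CpG, upstream of the gene (chr13:117099911-117100060): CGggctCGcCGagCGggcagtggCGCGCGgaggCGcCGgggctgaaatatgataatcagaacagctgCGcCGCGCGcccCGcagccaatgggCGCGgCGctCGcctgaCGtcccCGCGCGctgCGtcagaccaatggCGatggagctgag
Lhx4, 24 CpG, upstream of the gene (chr1:157589946-157590095): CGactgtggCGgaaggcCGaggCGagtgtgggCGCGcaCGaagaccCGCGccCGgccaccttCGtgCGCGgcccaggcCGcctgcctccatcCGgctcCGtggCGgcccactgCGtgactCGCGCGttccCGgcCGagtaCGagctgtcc
Lhx5, 16 CpG, coding exon 3 (chr5:120885362-120885511): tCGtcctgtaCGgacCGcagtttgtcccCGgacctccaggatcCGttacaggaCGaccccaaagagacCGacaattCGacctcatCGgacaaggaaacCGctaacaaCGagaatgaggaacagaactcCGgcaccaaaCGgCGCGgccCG
Lmx1b, 30 CpG, upstream of the gene (chr2:33496122-33496271): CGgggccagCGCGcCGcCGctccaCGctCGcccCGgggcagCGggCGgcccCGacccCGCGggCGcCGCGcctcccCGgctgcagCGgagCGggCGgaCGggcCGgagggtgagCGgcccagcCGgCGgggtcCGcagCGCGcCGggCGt
Lhx6, 15 CpG, intron (chr2:35960448-35960597): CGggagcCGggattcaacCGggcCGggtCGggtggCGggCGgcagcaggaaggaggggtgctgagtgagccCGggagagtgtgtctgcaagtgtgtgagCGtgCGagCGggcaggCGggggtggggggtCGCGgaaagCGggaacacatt
Lhx9, 15 CpG, intron (chr1:140738222-140738371): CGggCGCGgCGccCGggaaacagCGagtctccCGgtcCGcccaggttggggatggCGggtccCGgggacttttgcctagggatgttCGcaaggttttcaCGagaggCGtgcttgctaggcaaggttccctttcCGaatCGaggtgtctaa

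The window at Lmx1b, with the most CpG of the 6, lay in a peak of the EZHIP list alone. Isl1 and Lhx4 had the most CpG among the genes with peaks in every list. The windows not shown had 21 CpG at Lhx8, 20 at Lhx1, 16 at Lhx2 and 9 at Lhx3. The regions searched differed in length between the genes, so the numbers of CpG describe the windows shown and do not rank the genes.

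Isl1, needed in motor neurons, the second heart field and the pancreas, lay on chromosome 13 (117088478 to 117099896, minus strand) and had the widest peaks of the family. The Control peak measured 21.6 kb (117082601 to 117104200), the EZHIP peak 20.8 kb (117083801 to 117104600) and the K27M peak 23.6 kb (117081201 to 117104800). Each of them contained the whole gene and all 6 exons. The EZHIP peak was 0.963 times and the K27M peak 1.09 times as wide as the Control peak, the smallest changes from Control in the family on the log2 scale for either protein. The part common to all lists, 20.4 kb, made up 0.864 of the length covered by any, more than at any other member.

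Lhx1 and Lhx5 are close paralogues that act in the early head and forebrain and together in cerebellar Purkinje cells, and Lhx1 is also needed for the kidney. Lhx1 lay on chromosome 11 (84331479 to 84338923, minus strand). Its Control peak measured 11.2 kb (84330001 to 84341200), its EZHIP peak 13.6 kb (84328201 to 84341800) and its K27M peak 19.0 kb (84328001 to 84347000). The gene with all 5 exons was inside each. The upstream edge lay 2.28 kb before the 5′ end in Control and 2.88 kb before it in EZHIP, but 8.08 kb before it in K27M, so most of the added K27M width was on the upstream side. There the peaks entered the lincRNA gene 1500016L03Rik, whose 5′ end lies 239 bp from that of Lhx1 on the opposite strand and was inside all 3 peaks. The peak positions cannot assign the signal to either of the genes.

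Lhx5, on chromosome 5 (120881895 to 120891466, plus strand), differed most between the lists among the genes with a Control peak. The Control peak was 3.20 kb wide (120882801 to 120886000), began 0.906 kb downstream of the 5′ end and touched exons 2 and 3 of 5. The EZHIP list had no peak there, and its nearest lay 626 kb away. The K27M peak was 16.4 kb wide (120874401 to 120890800), 5.13 times the Control peak. It reached 7.49 kb upstream of the 5′ end and touched all 5 exons. The start of Lhx1 was thus in a peak of every list and that of Lhx5 in a peak of K27M alone.

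Lhx2, which acts in the eye, the forebrain and hair follicle stem cells, and Lhx9, needed for the gonad, are also paralogues. At Lhx2, on chromosome 2 (38194801 to 38225253, plus strand), the Control peak measured 8.20 kb (38195601 to 38203800), the EZHIP peak 9.20 kb (38195401 to 38204600) and the K27M peak 10.6 kb (38195201 to 38205800). They began 0.800, 0.600 and 0.400 kb downstream of the outermost 5′ end. The transcript with the longest coding sequence starts 12.0 kb into the gene record, and the Control peak ended 3.03 kb before that start, the EZHIP peak 2.23 kb and the K27M peak 1.03 kb. The Lhx2 peaks therefore lay between these starts and touched none of the 5 exons of that transcript. The start of another annotated transcript, 1811 bp into the gene, lay inside all of them. With any transcript start counted in place of the outermost, the number of genes with a start inside rose to 5 for Control, 6 for EZHIP and 7 for K27M, through Lhx2 in each list and Lhx3 in K27M. The Lhx3 starts inside, 4808 and 5383 bp into the gene, belonged to processed transcripts, and its protein-coding transcripts started outside the peak.

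Lhx9, on chromosome 1 (140721763 to 140745153, minus strand), had no peak in any list. The nearest Control peak was 16.8 Mb away, the nearest EZHIP peak 1.88 Mb and the nearest K27M peak 1.87 Mb. None of the starts of its 6 annotated transcripts was inside a peak.

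Lhx3 and Lhx4 are paralogues that specify the pituitary and motor neurons. Lhx4, on chromosome 1 (157548827 to 157589157, minus strand), had a Control peak of 12.8 kb (157579601 to 157592400), an EZHIP peak of 14.2 kb (157579201 to 157593400) and a K27M peak of 19.0 kb (157576001 to 157595000). Each contained the 5′ end and exon 1 of 6 and ended in the first intron, 9.56, 9.96 and 13.2 kb downstream of the start. Unlike at Isl1 and Lhx1, the peaks covered only 23.7% of the gene body in Control and 24.7% in EZHIP, and 32.6% in K27M.

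Lhx3, on chromosome 2 (26055732 to 26063769, minus strand), had a peak in K27M alone, 6.80 kb wide (26053401 to 26060200). It began 3.57 kb downstream of the outermost 5′ end and 1.90 kb downstream of the start of the transcript with the longest coding sequence, touched exons 2 to 6 of 6 and ended past the gene. The nearest Control and EZHIP peaks were both 3.57 Mb away. The K27M peak was the narrowest of that list at these genes, and the only one of its 7 below the median of all K27M peaks.

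Lhx6, needed for cortical interneurons, and Lhx8, which acts in cholinergic neurons of the basal forebrain and in oocytes, are paralogues as well. At Lhx8, on chromosome 3 (153969260 to 153993615, minus strand), the Control peak measured 6.80 kb (153990401 to 153997200), the EZHIP peak 6.40 kb (153989801 to 153996200) and the K27M peak 12.4 kb (153986001 to 153998400). All contained the 5′ end. The Control and EZHIP peaks touched exons 1 to 3 of 9, and the K27M peak reached exon 4. Compared with Control, the EZHIP peak ended 1.00 kb closer to the gene on the upstream side and reached 0.600 kb further downstream, so that it was shifted towards the gene body.

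Lhx6, on chromosome 2 (35937470 to 35960928, minus strand), had no peak. In all lists the nearest peak was the one at Lhx2, 2.23 Mb away.

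Lmx1b, which specifies the dorsal limb and serotonergic neurons, lay on chromosome 2 (33416485 to 33496031, minus strand). Its single peak was in the EZHIP list, 12.4 kb wide (33486201 to 33498600). It contained the 5′ end, reached 2.57 kb upstream and 9.83 kb downstream of it, and touched exons 1 and 2 of 8. The 5′ end of the lincRNA gene C130021I20Rik, 682 bp away on the opposite strand, was inside the same peak. The nearest peak was 1.92 Mb away in both the Control and the K27M list. Lmx1b was the only one of the 10 genes with a peak in EZHIP and none in Control.

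**Figure D2:**
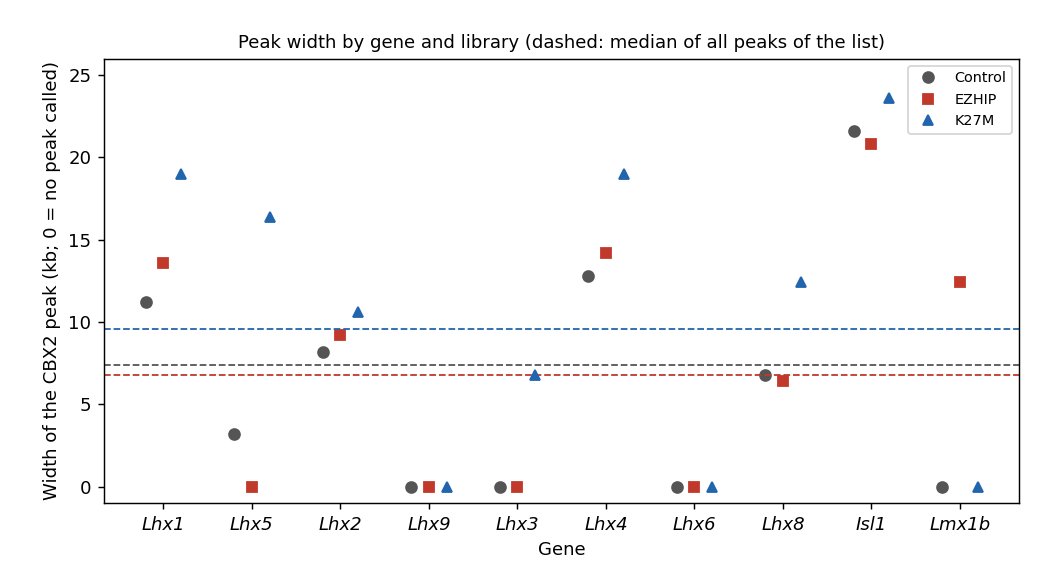
Width in kb of the CBX2 peak at each gene in Control (circles), EZHIP (squares) and K27M (triangles), with 0 where no peak was called and dashed lines at the median of all peaks of each list. The K27M point is the highest at each of the 6 genes with a Control peak, and the 3 points of Isl1 lie between 20.8 and 23.6 kb.

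In each list the median width of the peaks at these genes was above the median of all peaks. It was 9.70 kb in Control (range 3.20 to 21.6 kb, 6 peaks), 13 kb in EZHIP (6.40 to 20.8 kb, 6 peaks) and 16.4 kb in K27M (6.80 to 23.6 kb, 7 peaks). The medians of all peaks were 7.40, 6.80 and 9.60 kb. Of the peaks at these genes, 4 of 6 in Control, 5 of 6 in EZHIP and 6 of 7 in K27M lay above the median of their list. Summed width was 63.8 kb for Control, 76.6 kb for EZHIP and 107.8 kb for K27M. The K27M list covered more sequence as a whole, and the share of covered length that lay at these genes was 1.95% in Control, 2.77% in EZHIP and 2.41% in K27M. These medians, sums and shares rest on different genes in each list. EZHIP alone had the 12.4 kb peak at Lmx1b and lacked a peak at Lhx5, where the Control peak measured 3.20 kb. K27M alone had the 6.80 kb peak at Lhx3.

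Widths were next compared gene by gene with Control. In K27M the peak was wider at 6 of 6 genes with a peak in both lists. The log2 ratios were 2.36 at Lhx5, 0.87 at Lhx8, 0.76 at Lhx1, 0.57 at Lhx4, 0.37 at Lhx2 and 0.13 at Isl1, with a median of 0.67. Of all Control peaks, 79.2% had a K27M counterpart, and of these 229 peaks 75.5% were wider and 16.6% narrower in K27M, with a median of 0.32. The K27M peaks at these genes thus moved in the direction of most matched peaks, and whether they moved more was not tested.

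In EZHIP the peak was wider at 3 of 5 genes, by log2 ratios of 0.28 at Lhx1, 0.17 at Lhx2 and 0.15 at Lhx4, and narrower at Isl1 (-0.05) and Lhx8 (-0.09). Of all Control peaks, 66.4% had an EZHIP counterpart, and of these 192 peaks 33.3% were wider and 61.5% narrower in EZHIP, with a median of -0.09. The median at the 5 genes was 0.15. Both comparisons use the same Control library, so a Control peak called too narrow or too wide would move both ratios.

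Between the libraries with PRC2 inhibitors, the K27M peak was wider than the EZHIP peak at all 5 genes with peaks in both, by 1.13 times at Isl1, 1.15 times at Lhx2, 1.34 times at Lhx4, 1.40 times at Lhx1 and 1.94 times at Lhx8. Of all EZHIP peaks, 75.3% had a K27M counterpart, and of these 82.3% were wider and 12.5% narrower in K27M, with a median log2 ratio of 0.45 against 0.42 at the 5 genes.

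**Figure D3:**
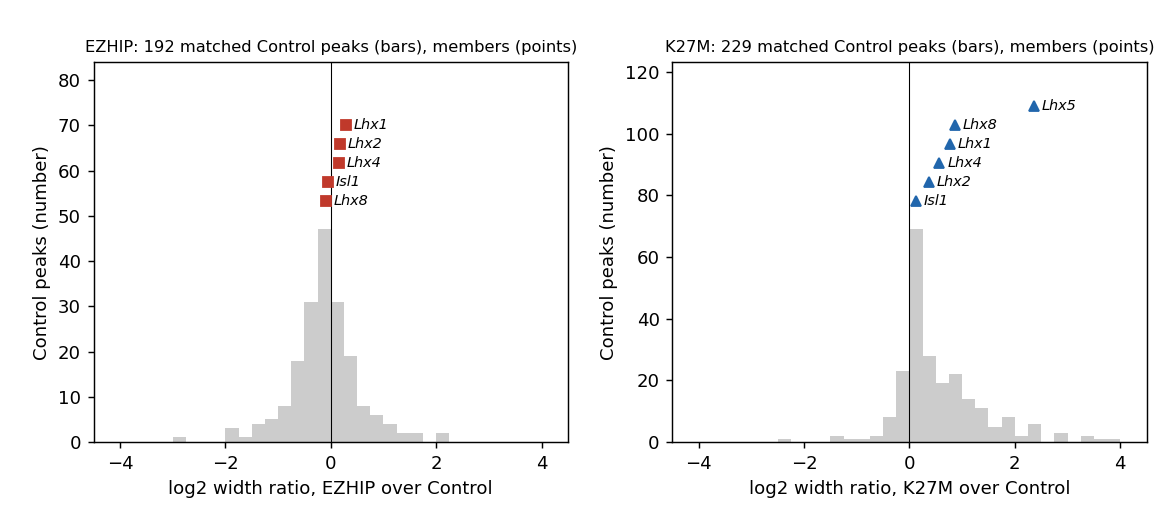
Distribution of the log2 width ratio of EZHIP (left) and K27M (right) to Control over all matched Control peaks (grey bars, bins of equal width, with ratios of exactly 0 counted to the right of the line), and the ratios at individual LIM homeobox genes as points above them, whose height has no meaning. The EZHIP points lie between -0.09 and 0.28 and the K27M points between 0.13 and 2.36.

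The edges showed where the K27M peaks gained width. At all 6 genes both edges of the K27M peak lay further out than those of the Control peak, which was so for 60.3% of matched Control peaks. On the upstream side the edge moved out by 8.40 kb at Lhx5, 5.80 kb at Lhx1, 2.60 kb at Lhx4, 1.20 kb at Lhx8, 0.600 kb at Isl1 and 0.400 kb at Lhx2. On the downstream side it moved out by 4.80 kb at Lhx5, 4.40 kb at Lhx8, 3.60 kb at Lhx4, 2 kb at Lhx1 and at Lhx2, and 1.40 kb at Isl1. In EZHIP both edges lay further out at 3 of 5 genes, Lhx1, Lhx2 and Lhx4, by at most 1.80 kb, against 18.2% of matched peaks. Edges are known to 200 bp, the bin in which peaks were written.

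The length common to all 3 lists, divided by the length covered by any, was 0.864 at Isl1, 0.774 at Lhx2, 0.674 at Lhx4, 0.589 at Lhx1 and 0.468 at Lhx8. At Lhx1, Lhx2 and Lhx4 the common part was the whole Control peak.

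CpG content, which the choice of genes did not use, was then compared with the peaks. A CpG island window was a 500 bp stretch with at least 55% G+C and at least 0.65 times the CpG dinucleotides that its base composition predicts. All 19 peaks at these genes held such a window, 6 of 6 in Control, 6 of 6 in EZHIP and 7 of 7 in K27M. Of all peaks, 65.4% in Control, 70.2% in EZHIP and 84.1% in K27M did. The median width at these genes was above that of all peaks in each list. A wider peak has more room for such a window, and the shares were not adjusted for width. The 19 peaks lay at 8 genes, so the lists largely repeat the same sites and are not separate cases. An island window near the 5′ end was also a property of 9 of the 10 genes, whatever their peaks. The ratio of observed to predicted CpG over whole peaks ranged from 0.227 at Lhx2 to 0.674 at Lhx8 in Control, and its median, 0.484, was close to that of all Control peaks, 0.454. In K27M the median was 0.411 at these genes and 0.463 over all peaks. The sequence was nearly unique in the genome. At most 4.27% of the 32-mers sampled in any of the 19 peaks occurred more than once. Peaks can only be called where reads align, so this does not describe sites without a peak. Over the extended gene body the share was 5.10% at Lhx5, 3.29% at Lhx9 and 2.39% at Lhx6.

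The islands of the genes were covered to different extents. At Isl1, Lhx8 and Lhx4 all island sequence of the extended gene body, 1.80, 3.00 and 4.15 kb, was inside the peaks of every list. At Lhx1 the Control and EZHIP peaks held 4.25 of 5.90 kb and the K27M peak 4.75 kb. At Lhx5 the Control peak held 0.956 of 6.10 kb and the K27M peak all of it, including the island over the 5′ end. At Lhx2 the Control peak held 0.500 of 5.30 kb, the EZHIP peak 0.850 kb and the K27M peak 1.05 kb, so that the islands at its starts lay largely outside the peaks. The EZHIP peak at Lmx1b held 4.80 of 7.15 kb, and the K27M peak at Lhx3 held 1.65 of 2.55 kb.

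**Figure D4:**
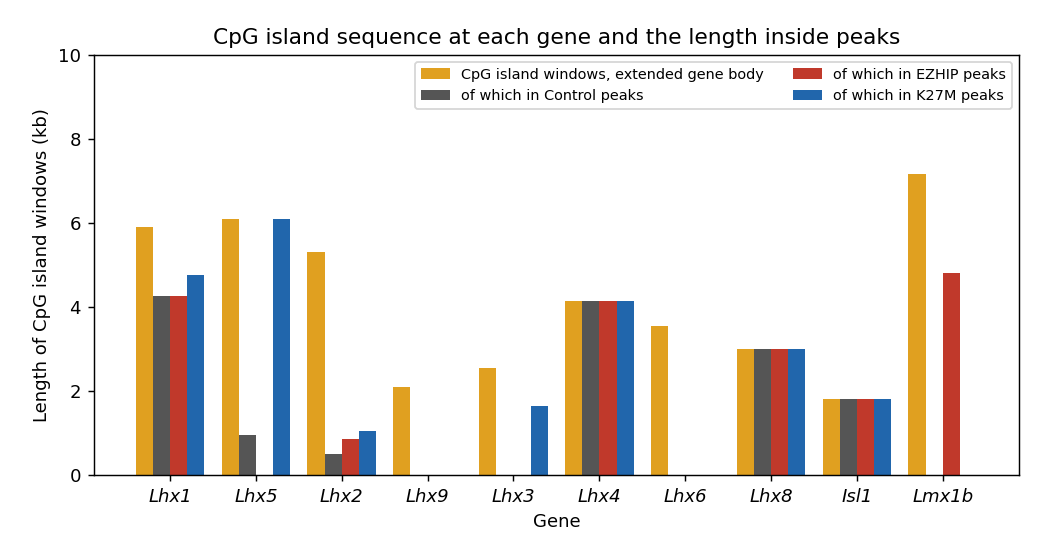
Length in kb of CpG island windows in the gene body extended by 5 kb (yellow) and the length of these inside the Control, EZHIP and K27M peaks, 1 set of bars per gene. Lhx4, Lhx8 and Isl1 have all island sequence inside the peaks of each list, while Lhx6 (3.55 kb) and Lhx9 (2.10 kb) have islands and no peak.

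Island sequence was present at the genes without a peak, with 3.55 kb at Lhx6 and 2.10 kb at Lhx9. Island length did not order the genes by peak width. Isl1 had the least island sequence, 1.80 kb, and the widest peaks, and Lmx1b had the most, 7.15 kb, and no Control or K27M peak. Within 5 kb of the 5′ end, the 10 genes had a median of 2.33 kb of island sequence. Among all protein-coding genes with an island window at the 5′ end, the median was 2.45 kb for the 274 with the 5′ end inside a peak of any list and 1.20 kb for the 11634 without.

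The sequence added in K27M was compared with the sequence shared with Control. CpG dinucleotides were less frequent in the K27M-only part at 4 of 6 genes. They fell from 3.73 to 1.62 per 100 bp at Lhx1, from 3.10 to 1.02 at Lhx4, from 4.44 to 1.30 at Lhx8 and from 2.0 to 1.30 at Isl1. The other 2 genes showed the reverse order, with 3.25 shared and 3.99 K27M-only CpG per 100 bp at Lhx5 and 1.09 and 3.17 at Lhx2, the genes whose Control peak missed the 5′ end. Among all Control peaks with K27M-only sequence beside them, 65.6% had fewer CpG in the added part.

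**Figure D5:**
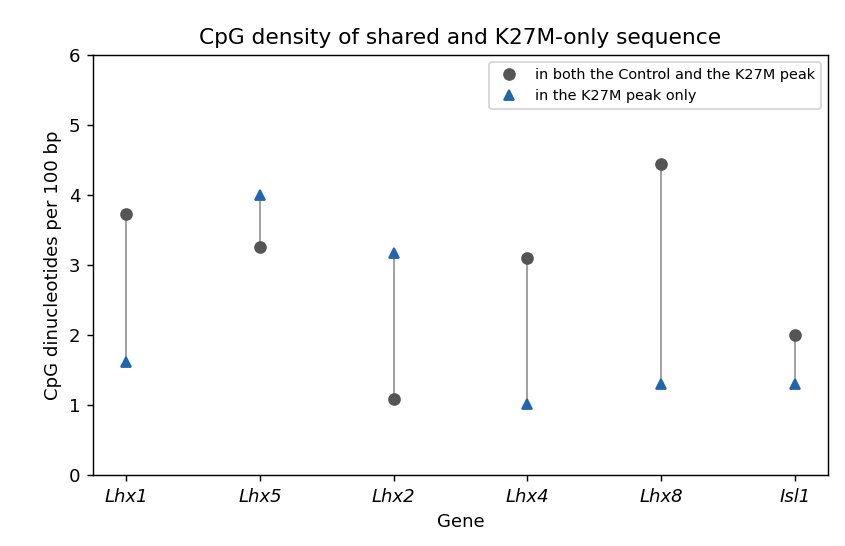
CpG dinucleotides per 100 bp in sequence covered by both the Control and the K27M peak (circles) and in sequence covered by the K27M peak only (triangles) at the 6 genes with a peak in both lists. The K27M-only value is lower at Lhx1, Lhx4, Lhx8 and Isl1 and higher at Lhx5 and Lhx2.

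The rest of the LIM homeobox family and the proteins that work with it were examined as a list of 12 genes. It held Isl2 and Lmx1a, the adaptor genes Ldb1 and Ldb2, the LIM-only genes Lmo1, Lmo2, Lmo3 and Lmo4, the single-stranded DNA binding protein genes Ssbp2, Ssbp3 and Ssbp4, and the ubiquitin ligase gene Rlim. The Control list had a peak at 1 of the 12, the EZHIP list at 0 and the K27M list at 2. The shares of all protein-coding genes were 1.49, 1.44 and 1.78%. No outermost 5′ end of the 12 genes was inside a peak, against 0.903, 0.894 and 1.19% of all protein-coding genes. With shares this low, having none among 12 genes does not set the list apart. Lmx1a, the paralogue of Lmx1b that acts in the roof plate and in dopaminergic neurons, had a peak of 5.00 kb in Control (chromosome 1, 169620601 to 169625600) and of 5.60 kb in K27M (169619401 to 169625000). The K27M peak began 31 bp downstream of the outermost 5′ end, a distance below the 200 bp bin of the edges. It contained the start of a transcript 319 bp into the gene. Lmx1a and Lmx1b thus had peaks in different lists, Control and K27M for the former and EZHIP for the latter. Lmo2, a regulator of blood formation, had a peak of 4.2 kb in K27M alone (chromosome 2, 103808401 to 103812600), 10.3 kb downstream of its outermost 5′ end. That peak contained the innermost annotated start of Lmo2, 13193 bp into the gene. It touched exon 1 of 3 and held all 1.75 kb of island sequence of the extended gene body. Isl2, the paralogue of Isl1, had no peak within 7.59 Mb in any list, although its extended body held 5.15 kb of island sequence.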

How the data were processed

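CBX2 ChIP-Seq peak lists of 3 of the 5 labelled MEF libraries were used (Control, EZHIP and K27M, 1 each). Libraries labelled K27R and EEDnull are not analysed here. Per the study's methods, the authors aligned reads to mm9 with bowtie1 at default settings (Bowtie 1.0.0 in the submitters' processing notes). They called broad peaks with MOSAiCS-HMM, with a maximum gap of 10000 bp and a minimum size of 1000 bp. Enriched stretches closer than the maximum gap can be joined, so a peak need not be continuous CBX2 signal. Use of an input library and scaling of reads before calling are not stated. A library with more reads can give more and wider peaks. The deposited files held chromosome, start and end of each peak on a grid of 200 bp bins. Positions are 1-based on mm9.

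Genes came from GENCODE vM1 and sequence from NCBIM37, the assembly of mm9. Peaks were assigned to genes by an overlap of at least 1 bp with the gene body extended by 5 kb. Exons are those of the transcript with the longest coding sequence. CpG island windows were sought in steps of 50 bp, and 32-mers were sampled every 100 bp. A counterpart was a peak overlapping by at least 1 bp. The code for the gene overlap was run on 200 simulated peaks placed over gene starts or just past gene ends, and all were found. That run checks the code only and says nothing about the peak calls. Python 3.11.15 and numpy 2.4.6 were used. With 1 library per group no p-value was computed, and no members are replicates.

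The genes and lists were chosen with earlier results of these data known. All 10 genes and the 12 genes of the cofactor list are named, with genes that share a peak with them and those most like a member whose pattern differed from most, of which 1 is not reported here. Alternatives were 0 or 10 kb of extension, peaks of at least 5000 bp, equal numbers of widest peaks, joining of peaks closer than 10000 bp, an overlap of at least 1000 bp, any transcript start, and protein-coding transcripts only.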

Additional observations from a re-analysis of the deposited data

How the results depend on the processing

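The alternatives gave 150 values for 21 results under 8 settings. Of these, 144 equalled the reported value, 6 moved by no more than 1.5 times and 0 changed direction. The 6 were the counts of genes with a start inside a peak when any transcript start was counted (5 in Control, 6 in EZHIP, 7 in K27M and 5 in all lists), and the Control count of genes with a peak and their summed width among peaks of at least 5000 bp (5 genes and 60.6 kb). That limit removed the 3.20 kb Control peak at Lhx5, so the Lhx5 width ratio had no value there. Many of the equal values could hardly have differed. Peaks were taken whole, so any setting that kept the same peaks returned the same widths and ratios. Joining at 10000 bp repeats the maximum gap of the authors' peak calling. The outermost start of each gene belongs to a protein-coding transcript, so that restriction left the 5′ ends in place. The tally is therefore no measure of robustness. With the 255 widest peaks of each list, the K27M list had peaks at 7 genes and Control at 6. For K27M this outcome was fixed in advance. Its narrowest peak at these genes measured 6.80 kb, and only 241 K27M peaks reached 5000 bp. The setting therefore cannot show whether the length of the K27M list mattered. No paired analysis was possible because every group was a single library, which also leaves none to omit. Unknown read depth limits every comparison of presence and width between the lists.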

Other observations

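The 5′ end was inside a peak of the K27M list alone for 82 protein-coding genes, Lhx5 among them, and of the EZHIP list alone for 31, Lmx1b among them. By width, the genes most like Lhx5 in the K27M list included Foxf2 (16.2 kb) and Dmbx1 (15.4 kb), against 16.4 kb at Lhx5. Both encode developmental transcription factors. Those most like Lmx1b in the EZHIP list were Hist3h2a and Trim17, whose starts share 1 peak of 9.80 kb, and Ranbp6 (8.40 kb), against 12.4 kb at Lmx1b. The likeness rests on the width in 1 library each.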
